A study of Mus musculus with 6 samples.

Results

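The transcripts described here are those of 8 interferon-induced mouse genes, *Ifi44*, *Ifi27*, *Ifi27l2a*, *Ifi35*, *Xaf1*, *Lgals3bp*, *Lgals9* and *Sp100*. They were taken by gene symbol from a count table of 37310 genes, and all 8 had a row of their own. RNA was sequenced from whole brain of 12-week-old male C57BL/6 mice, with 3 mice and 3 libraries for each of 2 genotypes. The *Adar1* E861A/E861A *Ifih1*-/- mice were homozygous for a germline point mutation, E861A, which leaves ADAR1 without catalytic activity in every cell. They are called mutant below, and the control mice were *Adar1*+/+ *Ifih1*-/-. Both genotypes therefore carried the knockout of *Ifih1*, the gene for MDA5, a sensor of double-stranded RNA, and no mouse with intact *Ifih1* was part of the comparison. The comparison asks whether transcripts of these genes differ when editing by ADAR1 is lost in a brain without MDA5. Because whole tissue was sequenced, more cells of a type and more RNA per cell cannot be told apart.

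Type I interferons bind a receptor on most cells, and the signal reaches the nucleus through transcription factors that bind interferon-stimulated response elements in promoters. The genes switched on this way encode antiviral proteins, signalling components and regulators of cell death, and in the brain they can be expressed by glia, endothelial cells and neurons alike. ADAR1 converts adenosine to inosine in double-stranded RNA, and RNA that is left unedited can be sensed by MDA5 and start interferon production. Of the 8 genes, *Ifi44* encodes a cytoplasmic interferon-induced protein, *Ifi27* and *Ifi27l2a* encode small hydrophobic membrane proteins of 1 family, and *Ifi35* encodes a partner of NMI. XAF1 antagonises the apoptosis inhibitor XIAP. LGALS3BP is a secreted glycoprotein that binds galectins and matrix, galectin-9 (*Lgals9*) is a lectin that binds beta-galactosides, and SP100 is a resident of PML nuclear bodies.

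Promoter sequences were examined because the shared property of these genes is their induction by interferon. RefSeq windows of 300 bases, from 250 before to 50 after the annotated start (GRCm38.p6), were found for 6 of the 8 genes and not for *Ifi27* and *Ifi27l2a*. The 4 windows printed here are those of *Ifi44*, *Lgals3bp* and *Sp100*, the genes with a window that were called higher in the comparison given further on, and of *Lgals9*, the gene whose window held the longer motif. They are written 5′ to 3′ on the strand of the gene, and capitals mark matches to AANNGAAA, the core recognised by interferon regulatory factors, or to the core of the interferon-stimulated response element (ISRE), on either strand. The ISRE core was searched as GAAA, any 2 bases and GAAA.
Ifi44 (chr3:151749861-151750160, minus strand): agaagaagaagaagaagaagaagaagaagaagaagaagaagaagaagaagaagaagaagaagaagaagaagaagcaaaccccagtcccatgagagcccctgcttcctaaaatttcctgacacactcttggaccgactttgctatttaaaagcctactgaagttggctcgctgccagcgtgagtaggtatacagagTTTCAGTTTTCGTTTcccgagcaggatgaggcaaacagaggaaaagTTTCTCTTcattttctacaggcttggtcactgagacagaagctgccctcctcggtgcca
Lgals3bp (chr11:118401910-118402209, minus strand): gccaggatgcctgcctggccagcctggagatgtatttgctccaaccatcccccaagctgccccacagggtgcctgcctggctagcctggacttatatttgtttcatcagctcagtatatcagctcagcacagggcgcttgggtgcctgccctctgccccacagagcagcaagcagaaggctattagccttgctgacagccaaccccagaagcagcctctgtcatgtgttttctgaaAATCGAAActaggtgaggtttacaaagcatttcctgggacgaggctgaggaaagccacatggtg
Sp100 (chr1:85649738-85650037, plus strand): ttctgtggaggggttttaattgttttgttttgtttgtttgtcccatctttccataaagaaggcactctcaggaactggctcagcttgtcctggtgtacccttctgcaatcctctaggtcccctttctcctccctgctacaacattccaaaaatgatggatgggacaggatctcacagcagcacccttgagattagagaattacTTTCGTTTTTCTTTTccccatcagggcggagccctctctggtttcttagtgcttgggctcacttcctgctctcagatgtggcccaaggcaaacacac
Lgals9 (chr11:78984875-78985174, minus strand): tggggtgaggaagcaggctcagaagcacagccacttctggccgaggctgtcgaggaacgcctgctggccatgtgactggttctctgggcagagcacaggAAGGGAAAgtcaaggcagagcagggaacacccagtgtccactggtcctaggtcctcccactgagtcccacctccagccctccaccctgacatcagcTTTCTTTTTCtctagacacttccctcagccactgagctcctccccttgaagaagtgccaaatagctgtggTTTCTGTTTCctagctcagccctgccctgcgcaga

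The shorter core AANNGAAA was present in 6 of 6 genes with a window, against 26.7% of the 27025 genes with a RefSeq window. In *Ifi44* matches began at positions -55, -48 and -9 relative to the start, and the pair farthest upstream overlapped by a base. *Sp100* had a pair in the same arrangement at -47 and -40, whereas *Lgals3bp* had a single match at -14. RefSeq holds another window for *Sp100*, not printed, in which the same pair lay at -73 and -66. In *Xaf1* matches lay at -17 and 12, and in *Ifi35* at 15. The longer ISRE core, of which every match also contains AANNGAAA, was found only in *Lgals9* among the 6 genes, at -55 and 16, against 3.99% of all genes. A STAT motif, TTCNNNGAA, was found in 1 of the 6 genes, *Ifi35*, against 9.55% of all genes. For comparison, of 21 other interferon-stimulated genes with a window 15 held AANNGAAA, 13 held the ISRE core and 6 held TTCNNNGAA. These letters describe the sequence only, and binding was not measured here.

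Library depth ranged from 26853488 to 38076753 counts, and 3 counts, the upper limit that a count of 0 leaves, corresponded to between 0.0788 and 0.112 CPM (counts scaled to library size). *Adar*, in which a point mutation need not alter the count, had 4063 to 6556 counts per library. *Ifih1* had 38 to 56, and whether these reads lie in its deleted part cannot be read from gene counts. The 5 neuronal markers summed to between 3690 and 3790 CPM in mutant and 3810 and 3840 CPM in control libraries. Of these 0 were called, with 2 at an unadjusted p under 0.05. Of all 13649 genes in the CPM-filtered fit given below, 1311 had an unadjusted edgeR p of 0.0539 or less. The library of *Adar1* E861A/E861A *Ifih1*-/- replicate 1 stood apart in holding 425 CPM of the pituitary hormone transcripts *Gh*, *Prl* and *Pomc*, against at most 2.54 CPM in any other library.

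Transcripts of the 8 genes were higher on average in the *Adar1* E861A/E861A *Ifih1*-/- brain in 8 of 8 cases, from 1.28-fold for *Xaf1* to 6.87-fold for *Ifi44* and a ratio of 7.31 for *Ifi27l2a*, whose control counts were very low. CPM values given per gene were scaled by TMM factors. Genes were tested if they reached 2 CPM in 3 of 3 libraries of either genotype, and 5 of the 8 did so, with *Lgals9* reaching it only in the mutant. In edgeR's quasi-likelihood test 3 of these 5, *Lgals3bp*, *Ifi27* and *Sp100*, were called higher at an adjusted p under 0.05, where 0.41% of the 13649 genes tested were called higher. Over all genes 69 (0.506%) were called in either direction, or 158 with the replicate number as a block. *Ifi44*, *Ifi27l2a* and *Ifi35* failed the filter and were read from a fit with edgeR's filterByExpr filter. That fit retained 19366 genes and all 8 of the set, of which 5 were called higher against a background of 0.449%. *Ifi27l2a*, among these 5, was kept by that filter through the mutant libraries alone. Its controls held 3 counts each, below the filter's minimum of 10 counts at median depth. The median log2 fold change of the 8 was 0.79, against 0.0001 over all 19366 genes, and 50% of all genes had a value above 0. In 6 of 8 genes every mutant library was above every control library, which was so for 7.76% of all genes in that fit. *Xaf1* and *Lgals9* overlapped between genotypes. Within libraries of the same replicate number, the mutant was higher in 3 of 3 pairs for all 8 genes, which was so for 19.4% of all genes. For the 6 genes without overlap any pairing gives this result, so it adds nothing to their separation. For *Xaf1* and *Lgals9* it rests on the replicate numbers, which the labels do not describe as pairs. With the number as a block these last genes were still not called (edgeR adjusted p = 0.187 and 0.274).

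**Figure D1:**
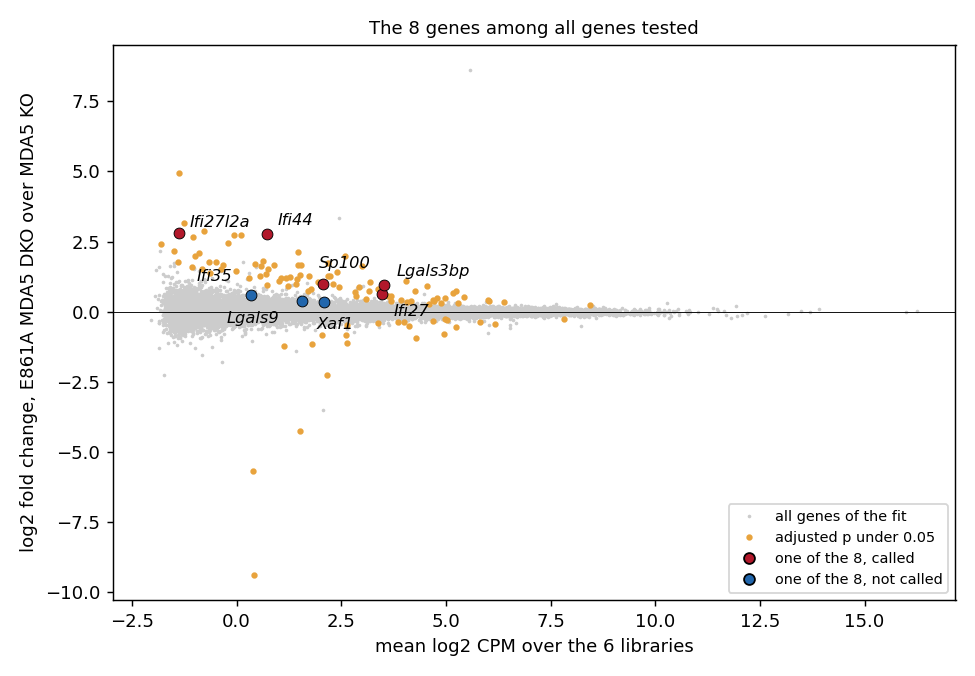
The log2 fold change of each gene (vertical axis, *Adar1* E861A/E861A *Ifih1*-/- over *Adar1*+/+ *Ifih1*-/-) is plotted against its mean log2 CPM over the 6 libraries (horizontal axis) for the 19366 genes kept by the filterByExpr filter. Grey points are genes of the fit, orange points those with an adjusted p under 0.05, red circles the 5 genes of the set that were called and blue circles the 3 that were not. All 8 lie above 0.

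The plot against all genes places the set at low to moderate expression. The 5 called members stand above the grey cloud, which widens towards low counts, and the other 3 lie within its upper edge.

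*Ifi44* (ENSMUSG00000028037; mm9 chromosome 3, 151393886 to 151412911, minus strand) had the largest fold change of the set that did not rest on control libraries at the counting floor. It had 57, 101 and 102 counts in the mutant libraries, or 1.94, 2.82 and 3.84 CPM. The control libraries were at 0.546, 0.346 and 0.335 CPM. The genotypes did not overlap, and the lowest mutant library was still well above the highest control. Mean levels were 2.86 ± 0.951 CPM and 0.409 ± 0.118 CPM (SD, n = 3 each). The log2 fold change was 2.78 ± 0.28 (SE, filterByExpr fit, edgeR adjusted p = 2.77e-05). The gene missed the 2 CPM filter narrowly, its lowest unscaled value in the mutant being 1.97 CPM. An exact two-sided permutation test of the 3 against 3 libraries gave p = 0.1, the smallest value this design allows, and gave the same for each of the 6 genes without overlap. The family relative *Ifi44l* had 0 counts in all 6 libraries.

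*Ifi27* and *Ifi27l2a*, which belong to the same family and lie beside each other on chromosome 12, were both called higher, *Ifi27* from a well-counted level and *Ifi27l2a* from a few reads. *Ifi27* (ENSMUSG00000064215; mm9 chromosome 12, 104672421 to 104678449, plus strand), was at 12.7, 14.2 and 13.5 CPM in the mutant libraries. RefSeq lists *Ifi27l1* as a synonym of this gene and *Ifi27* also as a synonym of *Ifi27l2a*, and the symbols here are those of the count table. In control brain it was at 8.35, 9.41 and 8.57 CPM. Replicates of each genotype lay close together, with coefficients of variation of 5.6% and 6.33%. The means were 13.5 ± 0.756 and 8.78 ± 0.556 CPM (SD, n = 3 each), a log2 fold change of 0.62 ± 0.08 (SE, edgeR adjusted p = 0.00145). This was a modest 1.54-fold difference measured with the smallest relative spread in the mutant among the 8 genes.

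*Ifi27l2a* (ENSMUSG00000079017; mm9 chromosome 12, 104680377 to 104681890, minus strand) was close to the detection limit in control brain. It had 9, 25 and 21 counts in the mutant libraries and 3, 3 and 3 in the controls. Every mutant library was above the controls, and mutant replicate 1 was the lowest of the 3. The sums of 55 and 9 counts gave a depth-corrected ratio of 7.31 (95% exact interval 3.59 to 16.8, counting error only). The fitted log2 fold change of 2.81 ± 0.47 (SE, filterByExpr fit, edgeR adjusted p = 0.00505) depends on the prior count at such levels. Without mutant replicate 3 it was 2.60 and was no longer called (edgeR adjusted p = 0.0753). Of its 463 bases of exon, 215 also belong to *Ifi27l2b* on the same strand, and reads there are assigned to neither gene in the authors' counting. *Ifi27l2b* itself had 1, 2 and 5 counts in mutant and 1, 6 and 2 counts in control libraries.

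The neighbours were also set side by side within each library, a comparison chosen after their values were seen and given without a test. The log2 ratio of *Ifi27l2a* to *Ifi27* counts was -5.38, -4.35 and -4.10 in the mutant and -6.67, -6.88 and -6.68 in the controls. The mean ratio was higher in the mutant by 2.13, which restates on another scale that the fold change of *Ifi27l2a* was the larger, with 3 counts in each control library.

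**Figure D2:**
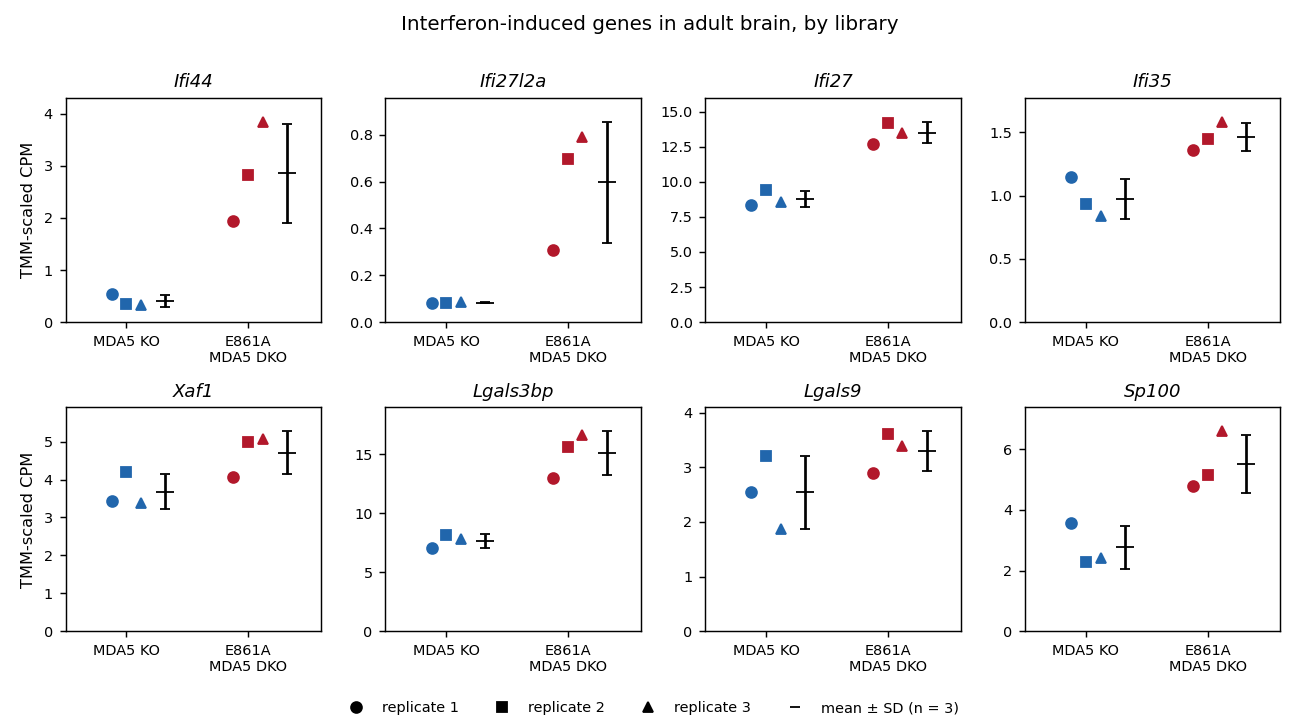
TMM-scaled CPM (vertical axis, from 0, a separate scale for each gene) is plotted for each of the 8 genes in the 3 *Adar1* E861A/E861A *Ifih1*-/- and the 3 *Adar1*+/+ *Ifih1*-/- libraries. Points are libraries, with the shape giving the replicate number, and bars show mean ± SD (n = 3). The groups are apart in 6 panels and overlap in those of *Xaf1* and *Lgals9*.

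*Lgals3bp* and *Lgals9*, a galectin-binding glycoprotein and a galectin, were both higher on average in the mutant, but only *Lgals3bp* passed the test. *Lgals3bp* (ENSMUSG00000033880; mm9 chromosome 11, 118254065 to 118263406, minus strand) was at 13.0, 15.6 and 16.6 CPM in mutant brain and 7.04, 8.18 and 7.85 CPM in control brain. The genotypes were widely separated, as the plot of values by library shows. Means were 15.1 ± 1.84 and 7.69 ± 0.586 CPM (SD, n = 3 each), and the log2 fold change was 0.97 ± 0.10 (SE, edgeR adjusted p = 0.000148), a 1.96-fold rise. By p-value it ranked 15 of the 13649 genes tested, the highest place of any member in that fit.

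*Lgals9* (ENSMUSG00000001123; mm9 chromosome 11, 78776476 to 78798448, minus strand) was at 2.89, 3.60 and 3.39 CPM in the mutant libraries. Control libraries were at 2.54, 3.20 and 1.87 CPM, so that control replicate 2 was above mutant replicate 1. The log2 fold change of 0.38 ± 0.18 (SE) did not pass the test (edgeR adjusted p = 0.558). Its promoter was the only one of the 6 with the longer core printed above. Within libraries the log2 ratio of *Lgals3bp* to *Lgals9* counts was 2.18, 2.12 and 2.30 in the mutant and 1.47, 1.36 and 2.07 in the controls. The mean ratio was higher by 0.56 in the mutant, given as a description for the same reason. Other galectins did not pass the test either. *Lgals8*, a galectin of the tandem-repeat type like galectin-9, was at 26.7 ± 0.892 and 28.1 ± 0.665 CPM (SD, n = 3 each), a log2 fold change of -0.08 ± 0.06 (SE). *Lgals1* was at 5.35 ± 0.219 and 5.02 ± 0.65 CPM, with a log2 fold change of 0.09 ± 0.12 (SE).

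*Sp100* (ENSMUSG00000026222; mm9 chromosome 1, 87546563 to 87606573, plus strand) was called higher, with a wider spread between replicates than *Lgals3bp*. It was at 4.79, 5.16 and 6.58 CPM in the mutant libraries and 3.57, 2.29 and 2.43 CPM in the controls. The genotypes did not overlap, with control replicate 1 lying between the other controls and the mutants. The mean rose from 2.77 ± 0.704 to 5.51 ± 0.948 CPM (SD, n = 3 each), a log2 fold change of 0.99 ± 0.17 (SE, edgeR adjusted p = 0.0158). The call was lost without mutant replicate 3 (log2 fold change 0.85, edgeR adjusted p = 0.226) and without control replicate 3 (0.90, edgeR adjusted p = 0.127). Of its 75-base exon windows, 8.4% had another place in the genome at no more than 1 mismatch, so part of its reads may have been dropped. The relatives *Sp110* and *Sp140*, which lie in the same protein family, did not pass the test. *Sp110* had 32, 34 and 32 counts in the mutant and 23, 30 and 20 in the controls, a log2 fold change of 0.68 ± 0.24 (SE, filterByExpr fit, edgeR adjusted p = 0.417). *Sp140* was at a log2 fold change of 0.12 ± 0.25 (SE).

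*Ifi35* and *Xaf1* were not called. *Ifi35* (ENSMUSG00000010358; mm9 chromosome 11, 101309721 to 101320012, plus strand) was at 1.36, 1.45 and 1.58 CPM in the mutant libraries and 1.15, 0.933 and 0.838 CPM in the controls. The genotypes did not overlap, but the gap between the nearest libraries was small. The log2 fold change was 0.58 ± 0.21 (SE, filterByExpr fit, edgeR adjusted p = 0.433), and 290 bases of its exons are overlapped by the antisense gene *Gm11626*. Its partner *Nmi* was at 2.59 ± 0.317 and 2.24 ± 0.277 CPM (SD, n = 3 each), with a log2 fold change of 0.19 ± 0.15 (SE).

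*Xaf1* (ENSMUSG00000040483; mm9 chromosome 11, 72115131 to 72127235, plus strand) was at 4.07, 4.99 and 5.08 CPM in the mutant libraries and 3.44, 4.21 and 3.38 CPM in the controls. Mutant replicate 1 lay below control replicate 2. The log2 fold change was 0.36 ± 0.13 (SE, edgeR adjusted p = 0.46). *Xiap*, the inhibitor that XAF1 binds, was at a log2 fold change of 0.00 ± 0.04 (SE).

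**Figure D3:**
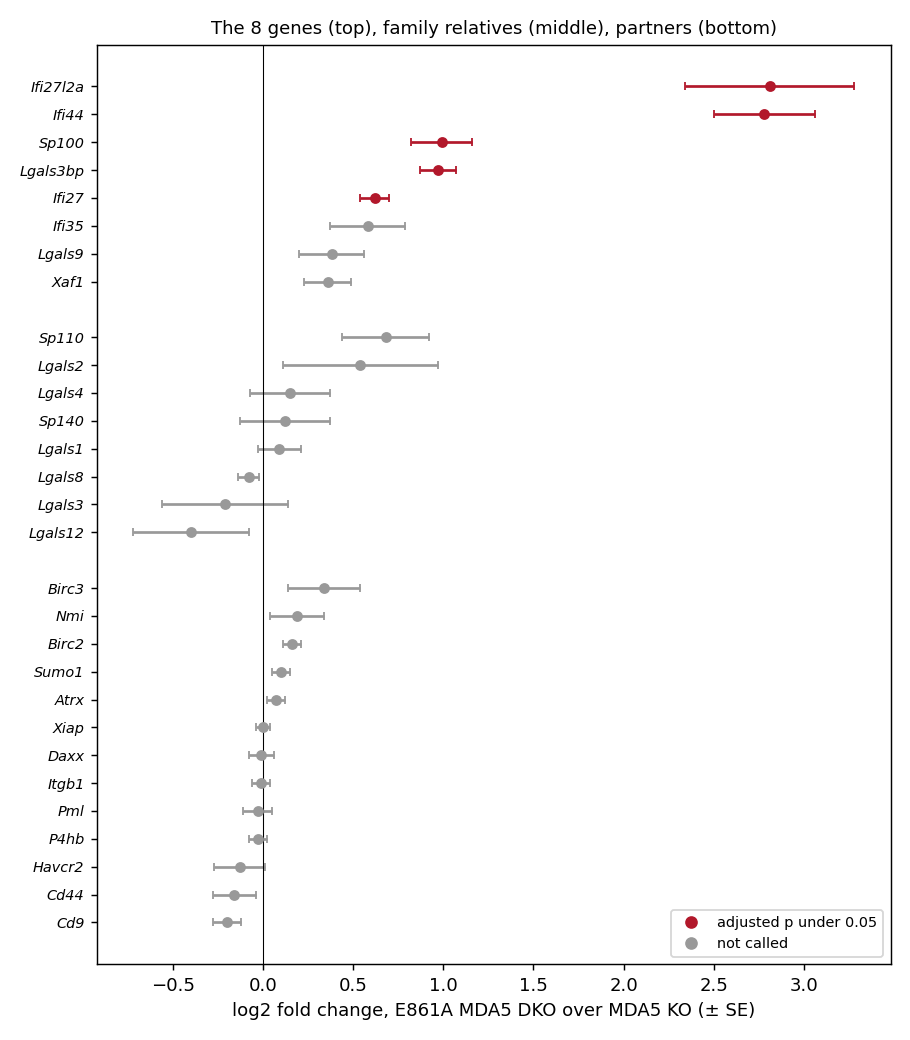
Log2 fold changes of the 8 genes (top, horizontal axis, *Adar1* E861A/E861A *Ifih1*-/- over *Adar1*+/+ *Ifih1*-/-) are shown with bars of 1 SE. Below them stand 8 family relatives and 13 binding partners. Red marks genes with an adjusted p under 0.05 and grey those without, and 5 of the 8 genes are red while all relatives and partners are grey. Values of the 8 run from 0.36 for *Xaf1* to 2.81 for *Ifi27l2a*.

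In the plot of fold changes, *Ifi44* and *Ifi27l2a* had log2 fold changes near 3, *Lgals3bp* and *Sp100* near 1, and the remaining 4, of which *Ifi27* alone passed the test, between 0.36 and 0.62. Differences between these fold changes were not tested. *Ifi27* was called and *Ifi35* was not at similar fold changes, with SEs of 0.08 and 0.21.

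Levels were compared between genes per kilobase of exon, without *Ifi27l2a*, because reads in much of its exon length are assigned to no gene. In control brain the order of mean level, in CPM per kilobase, was *Ifi27* (5.98), *Lgals3bp* (2.70), *Lgals9* (1.19), *Xaf1* (0.784), *Ifi35* (0.563), *Sp100* (0.366) and *Ifi44* (0.0669). Among neighbours in that order only *Lgals9* and *Xaf1* overlapped between libraries. In mutant brain the order was the same, from *Ifi27* (9.20), *Lgals3bp* (5.30) and *Lgals9* (1.54) through *Xaf1* (1.01), *Ifi35* (0.847) and *Sp100* (0.729) to *Ifi44* (0.468). There *Xaf1* overlapped *Ifi35*, and *Ifi35* overlapped *Sp100*.

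The mutant libraries were not equally high. *Adar1* E861A/E861A *Ifih1*-/- replicate 1 was the lowest of the 3 mutant libraries for 8 of 8 genes. Replicate 3 was the highest for 6 genes and replicate 2 for *Ifi27* and *Lgals9*. Averaged over the 8 genes, log2(CPM + 0.1) relative to the control mean was 0.76, 1.10 and 1.22 in mutant replicates 1, 2 and 3. In the controls it was 0.09, 0.04 and -0.13. The order among controls varied from gene to gene, with replicate 1 highest for 3 genes, replicate 2 for 4 and replicate 3 for 1. Replicate 1 is the library that held pituitary transcripts, and its part in the lower values was not tested. Without it 5 of the 8 genes were again called in the filterByExpr fit.

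**Figure D4:**
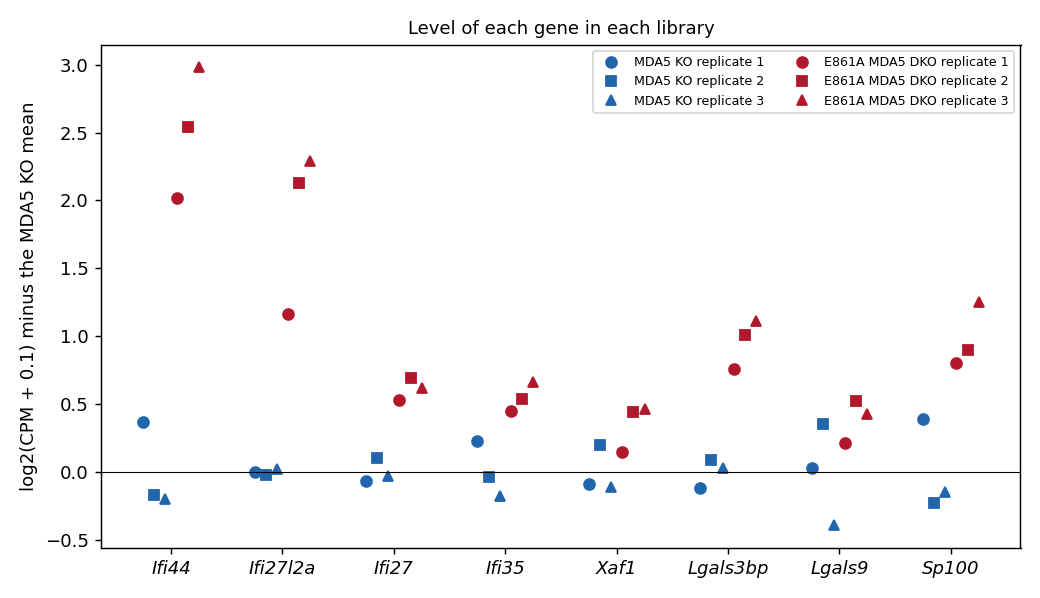
The log2(CPM + 0.1) of each of the 8 genes (horizontal axis) is shown relative to its mean in the control libraries (vertical axis), with 1 point for each of the 6 libraries. Red points are mutant and blue points control libraries, and the shape gives the replicate number. Mutant replicate 1 is the lowest mutant library for all 8 genes, and the control libraries lie between -0.39 and 0.39.

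Genes with the most similar pattern over the 6 libraries were sought for the 5 called members, by the mean absolute difference of centred log2 CPM. For *Lgals3bp* the nearest was the complement gene *C4b* (0.0454), followed by *Irgm2* (0.0696), where the median over all genes was 0.482. The nearest to *Sp100* were the guanylate-binding protein genes *Gbp4* (0.117) and *Gbp9* (0.141), with a median of 0.499. *Ifi44* was nearest to *Gm4951* (0.173) and *Tgtp2* (0.255), and *Ifi27l2a* to *Gm4951* (0.246) and *Iigp1* (0.266), against medians of 1.30 and 1.06. *Ifi27* was nearest to the vault RNA gene *Vaultrc5* (0.0597) and to *Lag3* (0.0761), against a median of 0.311. Since the measure uses the genotype difference itself, these values describe likeness and are not a test.

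Relatives and binding partners of the 8 proteins were examined as lists. Of 12 relatives listed from the IFI27, IFI44, galectin and SP100 families, 1 (*Ifi27l1*) was another name for the *Ifi27* row. Of the other 11, 8 were tested in the filterByExpr fit and 0 were called, their median log2 fold change being 0.10. Among the galectins not yet given, *Lgals2* was at 0.54 ± 0.43, *Lgals3* at -0.21 ± 0.35, *Lgals4* at 0.15 ± 0.22 and *Lgals12* at -0.40 ± 0.32 on the log2 scale (SE). *Lgals7*, too low to be tested, had 2, 5 and 4 counts in mutant and 2, 5 and 3 counts in control libraries. At an unadjusted p under 0.05 the count was 1, *Sp110*. Of 13 partners 12 were tested in the CPM-filtered fit and 0 were called, the median being -0.01 and values from -0.20 to 0.19. At an unadjusted p under 0.05 the count was 2, *Birc2* (0.16 ± 0.05, SE), an apoptosis inhibitor related to XIAP, and *Cd9* (-0.20 ± 0.08, SE), a tetraspanin. Over all 13649 genes of that fit, 1311 had an unadjusted edgeR p of 0.0539 or less. The counts of relatives and partners at this level are therefore descriptions and not results about the lists. The partners of SP100 in nuclear bodies, *Pml* and *Daxx*, were at log2 fold changes of -0.03 and -0.01. Under each of the 16 alternative settings 0 of the relatives and partners tested there were called. Every setting that kept the 2 CPM filter, DESeq2 and limma-voom included, tested only the relatives and partners that passed it. With all 6 libraries these were 2 of the relatives and 12 of the partners.

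In a wider list of 28 interferon-stimulated genes, 23 were tested in the CPM-filtered fit and 15 were called higher, where 0.41% of all genes were. Of these 15, 7 reached 2 CPM in all libraries of the mutant only, so the filter kept them through the group in which they were high, and 8 reached it in the controls too. The median of the 23 log2 fold changes was 0.88. The smallest adjusted p-values were those of *Ifit1* (2.00 ± 0.11, SE), *Ifit3* (1.64 ± 0.13, SE) and *Oasl2* (1.75 ± 0.14, SE). *Oasl2* was among the 7 kept through the mutant only, with 1.84 CPM in control replicate 2 and 1.84 CPM in control replicate 3. The interferon receptor chains *Ifnar1* and *Ifnar2* had log2 fold changes of -0.02 and 0.05, and the kinases *Jak1* and *Tyk2* of 0.01 and 0.06, none of them called. *Stat2* and *Irf9* of the same pathway were at 0.24 ± 0.08 and 0.37 ± 0.1 (SE) and were not called either. In this receptor pathway list 3 of 7 genes tested had an unadjusted p under 0.05. Over all 13649 genes tested, 1311 had an unadjusted edgeR p of 0.0539 or less. The ligand genes *Ifnb1*, *Ifng* and *Ifna4* had 0 counts throughout, a limit of 0.112 CPM in the shallowest library. *Ifna2* had 0, 1 and 0 counts in mutant and 0, 1 and 2 counts in control libraries.

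Markers of the cell types that whole brain holds were read beside these values. The 7 microglial markers summed to between 147 and 164 CPM in mutant and 161 and 168 CPM in control libraries, and 0 of 7 were called, with 1 at an unadjusted p under 0.05. The 6 lymphocyte markers summed to 5.19 to 5.94 CPM and 5.03 to 5.87 CPM. The 5 endothelial markers summed to 96.1 to 121 CPM in the mutant against 123 to 146 CPM, with 0 called in the CPM-filtered fit and *Flt1* called lower in the filterByExpr fit. The 3 mural markers summed to 72.8 to 84.5 CPM against 89.6 to 116 CPM, with *Rgs5* called lower in the filterByExpr fit. The difference in the sum lay in *Rgs5*, with means of 61.8 CPM in mutant and 83.4 CPM in control libraries. In the same order *Pdgfrb* was at 16.5 and 17 CPM and *Kcnj8* at 1.98 and 2 CPM. Astrocyte markers summed to 811 to 885 CPM against 795 to 833 CPM, oligodendrocyte markers to 3200 to 3560 CPM against 3320 to 3510 CPM, and erythroid markers to 21.5 to 27.8 CPM against 23.2 to 37.5 CPM. The 3 choroid plexus markers summed to 199 to 314 CPM against 373 to 387 CPM, with 0 called and 2 at an unadjusted p under 0.05. Marker counts at that level stand beside 1311 of all 13649 genes with an unadjusted edgeR p of 0.0539 or less. Markers of monocytes and neutrophils summed to 2.09 to 8.43 CPM in mutant and 1.28 to 2.23 CPM in control libraries, the highest value being that of mutant replicate 3, with 94 counts of *S100a8* and 111 of *S100a9*. *Ly6g*, which defines neutrophils, had 1 count in that library and 0 in the others. The part of these shifts in the values of the 8 genes was not tested. Replicate 3 was also the library without which *Sp100* and *Ifi27l2a* lost their calls, and *Ifi44*, *Ifi27* and *Lgals3bp* were called without it.

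**Figure D5:**
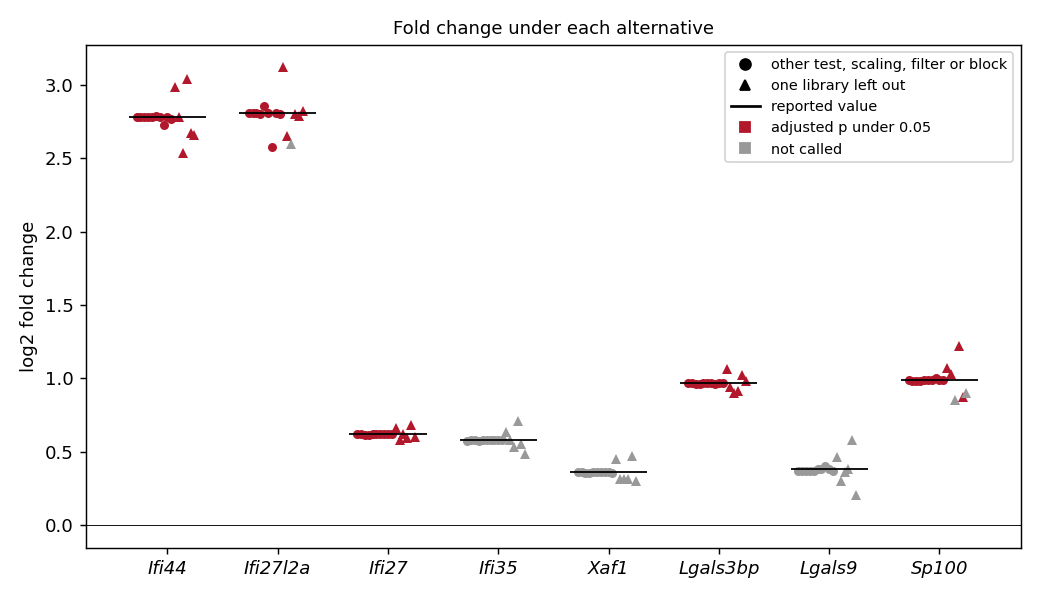
The log2 fold change (vertical axis) of each of the 8 genes (horizontal axis) is shown for each alternative. Circles are other tests, scalings, filters and the replicate block, triangles are fits with 1 library left out, the line is the reported value, and red marks values called and grey those not called. No value crosses 0, and *Ifi44*, *Ifi27* and *Lgals3bp* are called throughout.

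Across the alternative settings *Ifi44* ranged from 2.54 to 3.04, *Ifi27* from 0.58 to 0.68 and *Lgals3bp* from 0.90 to 1.06 on the log2 scale, and all 3 were called in each of the 16. *Ifi35*, *Xaf1* and *Lgals9* were called in none of them, with adjusted p-values of at least 0.226, 0.187 and 0.263.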

How the data were processed

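Whole-brain total RNA from 3 mice per genotype was depleted of ribosomal RNA, made into stranded libraries and sequenced as 75-base paired reads. The authors trimmed reads with Trimmomatic 0.36, aligned them with STAR 2.5.2a to NCBIM37 (mm9) and deposited raw counts per gene; the strand column was not given in the sources used here. The deposited CPM tables and the authors' own edgeR comparison (fold changes and adjusted p-values) were not used.

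Counts were tested in R 4.3.3 with edgeR 4.0.16 (TMM scaling, quasi-likelihood test, Benjamini-Hochberg adjustment over all genes tested, no covariates). Genes needed 2 CPM in 3 of 3 libraries of either genotype; genes below that were read from a filterByExpr fit. SE was the absolute log2 fold change over the square root of F. Deviations from the genotype means correlated between libraries of the same replicate number (r = 0.222, 0.331 and 0.112 across genes). Libraries of unlike number were not compared in this way, and the labels describe no pairs of animals. The replicate number was not used in the main fit, and as a block in an alternative it changed no member's call. Scripts were tested on simulated counts. Alternatives used DESeq2 1.42.0, limma 3.58.1, other filters and scalings, and each library left out.

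The 8 genes and all lists were chosen with earlier results of these data known. All 8 genes are named, together with called relatives, relatives with a count in each library, the 3 context genes of smallest adjusted p and the 2 genes nearest each called member; other genes were named after their values were seen. The result of 1 gene of the receptor pathway list is not reported here. Coordinates are from GENCODE vM1. Likeness used log2 CPM with a prior count of 2. Ratio intervals account only for counting error, as reads carried no molecular identifiers.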

Additional observations from a re-analysis of the deposited data

How the results depend on the processing

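Direction was the same for all 8 genes under every alternative in which they were tested. *Ifi27l2a* was not tested with a filter of 1 CPM. The number of genes called in all, 69, became 110 with filterByExpr, 376 without a filter, 139 with the likelihood ratio test and 158 with the replicate block, and 42 to 113 when 1 library was left out. Without a filter the fit used no spread of a gene's own. Members called higher, 3, became 5 with filterByExpr and 5 without a filter, and ranged from 2 to 4 with 1 library left out. In the filterByExpr fit the 5 members called became 3 to 5, the 3 being without mutant replicate 3. The other interferon-stimulated genes called, 15, became 25 without a filter, and the receptor pathway genes called, 1, became 2 without a filter and 2 with the replicate block. Of the calls, 81.2% were higher as reported, 65.2% with the block, 64.7% with the likelihood ratio test, 58% without a filter and 68.1% without mutant replicate 2. The lost calls of *Ifi27l2a* and *Sp100* rest on fewer libraries. Depth limits *Ifi27l2a* most, since its controls hold 3 counts each.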
